A study of Sus scrofa with 2 samples.

Results

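Homeobox genes encode transcription factors that bind DNA through a homeodomain, and they were examined here in brain and liver tissue of the Rongchang pig (Sus scrofa). The members are the 163 rows of the expression table whose product text holds the word homeobox, out of 21653 names in the whole table. A further 3 rows with the word were left out by the rule. The table named 58 members by symbol, 78 took their symbol from the gene number in a RefSeq gene table of another assembly, and 27 from the product text. Because 10 genes were spread over 23 rows, the 163 members stood for 150 genes. The series compares transcription between the 2 tissues, with 1 library per tissue. Both come from the Rongchang breed, and the labels add no age, sex, brain region or treatment and do not say whether the pieces came from the same animal. There are therefore no replicates, no test was possible, and every interval covers counting error only.

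The homeobox is an ancient sequence shared by many gene families that give cells their position and type. In vertebrates the HOX genes lie in 4 clusters, A to D, and their order within a cluster follows the order of the body parts in which they act, from the hindbrain backward. Other classes pattern the parts of the brain in front of the HOX domains: EMX and OTX genes act in the forebrain and midbrain, DLX genes in the precursors of GABA neurons, and LIM and POU genes in many neurons and glia. In the liver, HHEX and ONECUT1 act in hepatic endoderm and hepatocytes. TALE proteins such as PBX and MEIS bind DNA together with HOX and other partners.

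The counts are the authors' deposited counts per gene, 23796843 in brain and 31724498 in liver. They were scaled with TMM, a method that removes composition differences, to a scaled count per 1000000 (CPM), where 1 CPM equals 35.0 counts in brain and 21.6 in liver. The log2 ratio, brain over liver, has a pseudocount of 1 CPM, and a member was called at 4-fold or more if it also reached 1 CPM in at least 1 library. Folds are ratios of scaled CPM without the pseudocount, given with a 95% exact conditional binomial interval. The libraries matched their labels: all 11 brain markers (neuronal, astrocyte and myelin genes) were at 4-fold or more toward brain, and all 10 liver markers with a row toward liver. With plain library size the median log2 ratio of all genes at 1 CPM or more moved by 0.95 toward brain, so members near the limits are sensitive to scaling. The values are not corrected for transcript length and are therefore compared between tissues, not between genes.

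Most homeobox rows were scarce. Of the 163 members 62 (38.0%) reached 1 CPM in at least 1 library, against 72.5% of all names in the table. Of these, 32 did so in both tissues, 19 in brain alone and 11 in liver alone. The median member had 6 counts in brain and 2 in liver, against 149 and 68 over all names, and 51 members had no more than 3 counts in each library. The table holds no row at 0 in both libraries, so genes without any read have no row to count.

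Among the 62 members at 1 CPM or more, 13 were at 4-fold or more toward brain, where the background over all 15706 names at that level is 14.6%. Toward liver there were 4, against a background of 11.3%. The remaining 45 lay between, and the median log2 ratio was 0.57, against 0.02 for the 15706 names. The called members were 21.0% of the 62 toward brain and 6.45% toward liver. Over all rows, whatever their level, they were 7.98% and 2.45% of the 163, where the backgrounds are 10.6% and 8.2%. The pseudocount shrinks large folds of scarce genes. A second count therefore took every member whose whole 95% interval lay beyond 4-fold, a rule added after the counts were seen. It gave 17 members toward brain (10.4% of the 163, background 12.7%) and 11 toward liver (6.75%, background 9.42%). Over all 163 rows the shares thus lay below the background in both directions. Over the rows at 1 CPM or more the share toward brain lay above it. The low liver share at that level depends on the selection rule, which left out the HNF1 names and PROX1. With these kept, 7 of 65 members at 1 CPM or more were at 4-fold or more toward liver, instead of 4 of 62. The low liver share therefore cannot be read as a property of homeobox genes. By the interval rule the shares were not recomputed with these rows kept. Members that passed the 1 CPM level through 1 tissue alone had to differ, so that count describes the rows and supports nothing further.

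**Figure D1:**
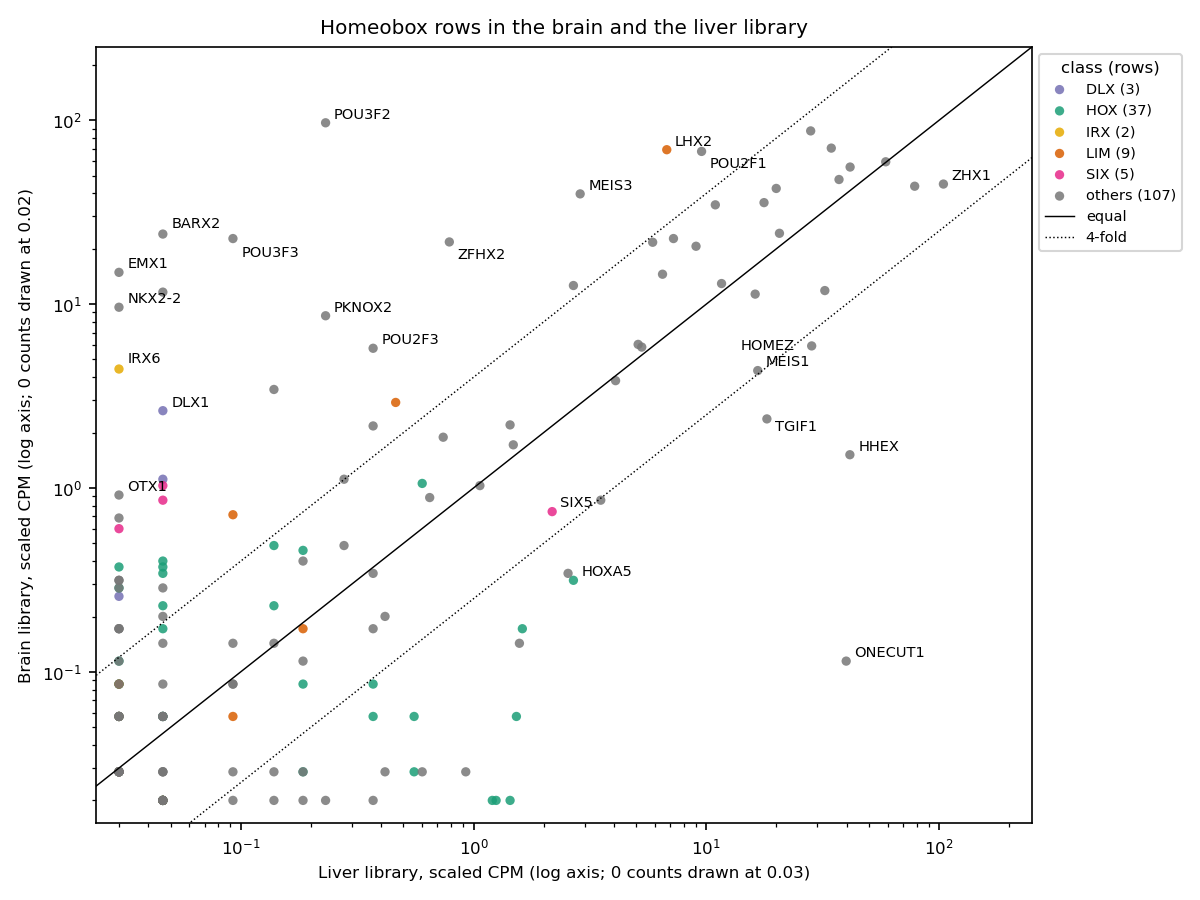
Scaled CPM of the 163 homeobox rows in liver (x axis) and brain (y axis), both on log axes, coloured by class, with 1 point per row and 1 library per tissue. The solid line marks equal values and the dotted lines 4-fold. POU3F2 lies far to the brain side at 96.8 CPM against 0.232, ONECUT1 far to the liver side at 39.9 CPM against 0.114, and the green HOX points stay at the low end of both axes.

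POU factors join a POU-specific domain to the homeodomain. Each of the 4 POU members that reached 1 CPM was called toward brain (background 14.6%), with a median log2 ratio of 3.57. Only 1 of the 4, POU2F1, also reached 1 CPM in liver (9.54 CPM), and the others passed that level through brain alone. POU3F2, known as BRN2 and active in upper-layer cortical neurons and their precursors, had 3383 brain counts and 5 liver counts, or 96.8 against 0.232 CPM. It had the most brain counts of any member and was 418-fold higher in brain (179 to 1288). POU3F3, known as BRN1, had 794 and 2 counts and was 245-fold higher (67.7 to 2029). A further row assigned to POU3F3 by gene number, whose product text lacks the word homeobox, had 426 brain counts and 1 liver count. POU2F1, the widely expressed octamer factor OCT1, had 2364 and 206 counts, a 7.09-fold difference (6.15 to 8.22). POU2F3, known from tuft cells and skin, had 201 and 8 counts, a 15.5-fold difference (7.73 to 36.5). POU3F4 (17 and 6 counts), POU1F1 (1 and 4), a pituitary factor, and POU5F1 (2 and 1), the pluripotency factor OCT4, stayed under 1 CPM in both tissues.

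The LIM class, whose proteins add LIM domains to the homeodomain, was carried by 1 gene. LHX2, which specifies cortical progenitors, had 2415 brain counts and 146 liver counts (69.1 and 6.76 CPM), with brain 10.2-fold higher (8.65 to 12.2). It took nearly all of the 2554 brain counts of the 9 LIM members. LHX6, which acts in cortical interneurons, had 102 and 10 counts, a fold of 6.30 (3.29 to 13.5) and a log2 ratio of 1.42. The other 7 LIM members were under 1 CPM in both tissues. LHX1 had 25 and 2 counts and LMX1A, a factor of midbrain dopamine neurons, 6 and 4, while LHX3, LHX4, LHX5, LHX8 and LHX9 had between 0 and 3 counts in each library.

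DLX genes drive the differentiation of GABA neurons in the ventral forebrain. DLX1 had 92 brain counts and 1 liver count, a fold of 56.8 with a wide interval of 9.95 to 2269. DLX2 had 39 and 1, a fold of 24.1 (4.08 to 976). DLX5 had 9 and 0, under 1 CPM. All 3 DLX members were thus higher in brain, yet with log2 ratios of 1.80, 1.02 and 0.33 none was called at 4-fold with the pseudocount.

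The SIX-family and IRX classes were thin. SIX4 (30 brain counts and 1 liver count), SIX2 (21 and 0) and SIX6 (1 and 0), a factor of eye and hypothalamus, stayed under 1 CPM. SIX5 alone went the other way, with 26 and 47 counts and a 2.93-fold higher level in liver (1.78 to 4.92). The class was thus mixed, with none of the 5 called. Of the iroquois genes, IRX6 had 155 brain counts and none in liver, at least 31.9-fold higher in brain against a floor of 3 liver counts, and IRX4 had 2 and 0.

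**Figure D2:**
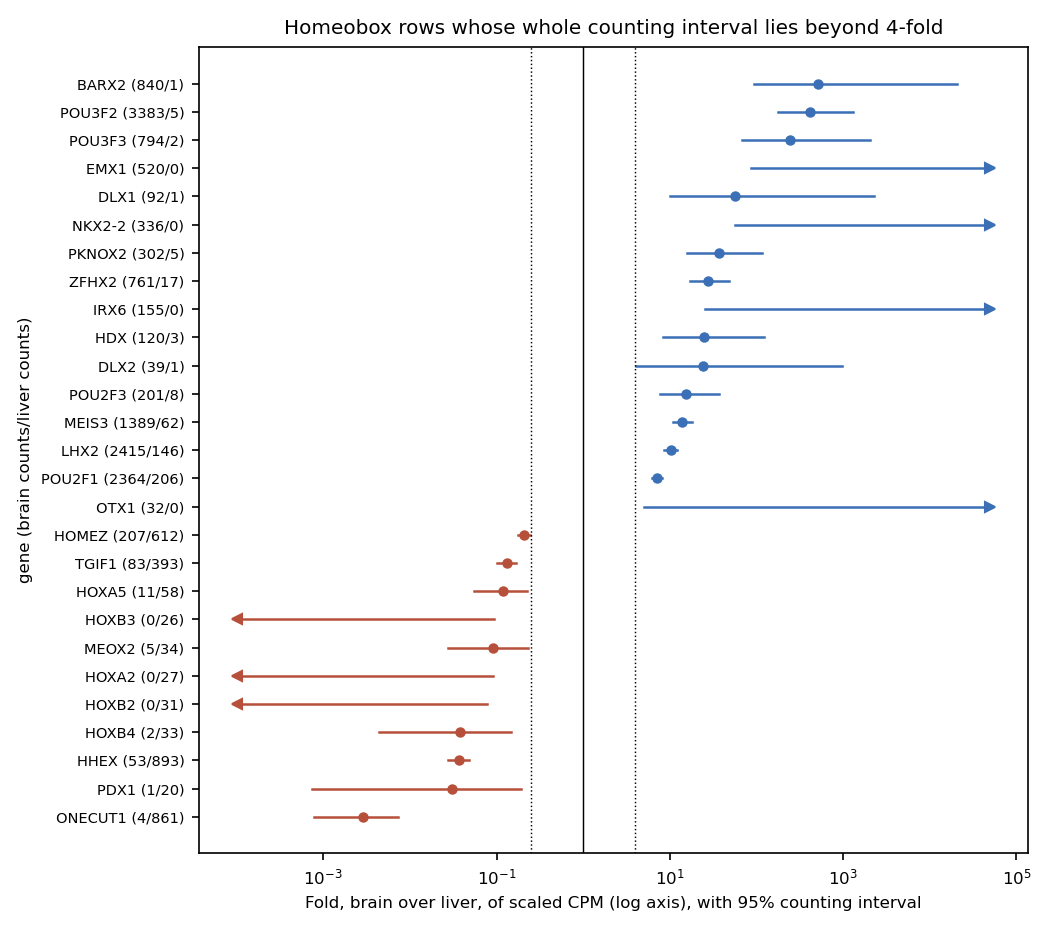
Fold, brain over liver, of scaled CPM (log axis) for 27 of the 28 members whose whole 95% counting interval lies beyond 4-fold, 16 toward brain (blue) and 11 toward liver (red). Points are folds, lines are intervals, arrows mark members at 0 counts in 1 library, and dotted lines mark 4-fold. Intervals of members with 1 to 5 counts on 1 side, such as BARX2 and ONECUT1, span more than a factor of 4, while those of LHX2 (8.65 to 12.2) and POU2F1 (6.15 to 8.22) are narrow.

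HOX genes were the largest named class, with 37 members. They held 205 brain counts and 292 liver counts in all, and 7 of the 37 reached 1 CPM, 6 of these in liver and 1 in brain. Liver counts sat in the HOXA and HOXB genes with low numbers, those that lie at the anterior end of each cluster. HOXA5 had 58 liver counts and 11 in brain, an 8.53-fold difference toward liver (4.43 to 18.0). HOXB4 had 33 and 2 (26.7-fold, 6.83 to 230). HOXB2, HOXA2 and HOXB3 had 31, 27 and 26 liver counts and none in brain, at least 16.7-fold, 14.6-fold and 14.0-fold higher in liver against a floor of 3 brain counts. HOXB5 followed the same direction at lower counts, with 12 in liver and 2 in brain.

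HOXA4 and HOXB1 were the exceptions among the 10 HOXA and HOXB genes of the anterior end. HOXA4 had 37 brain counts and 13 in liver, a fold of 1.76 toward brain whose interval, 0.914 to 3.61, includes equality. HOXB1 had 4 brain counts and 0 in liver. Pooled, the 10 genes had 63 brain and 247 liver counts and were 6.35-fold higher in liver (4.79 to 8.51). The other 27 HOX genes had 142 and 45 counts and were 1.95-fold higher in brain (1.39 to 2.79), and all 27 were under 1 CPM in both libraries. Both groupings were made after the counts were seen and describe these libraries only.

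Brain counts of HOX genes were spread thinly over all 4 clusters. The highest after HOXA4 were HOXC11 with 17, HOXB8 with 16, HOXA10 with 14, HOXD1 and HOXD10 with 13 each, HOXC4 with 12 and HOXA5 with 11. The whole HOXC cluster (7 members) had 34 brain and 10 liver counts and the HOXD cluster (9 members) 54 and 7. At 1 CPM or more in brain there was thus a single HOX member of 37, and in liver none from HOXC or HOXD. No member of these clusters lay wholly beyond 4-fold, and their rows had at most 17 counts in a library, which leaves wide intervals. Among the 37 HOX members 5, all HOXA or HOXB, lay wholly beyond 4-fold toward liver and 0 toward brain. The backgrounds by that rule are 9.42% and 12.7%. Genes of the same cluster overlap with antisense transcripts, and without a stated strand setting their reads cannot be told apart.

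**Figure D3:**
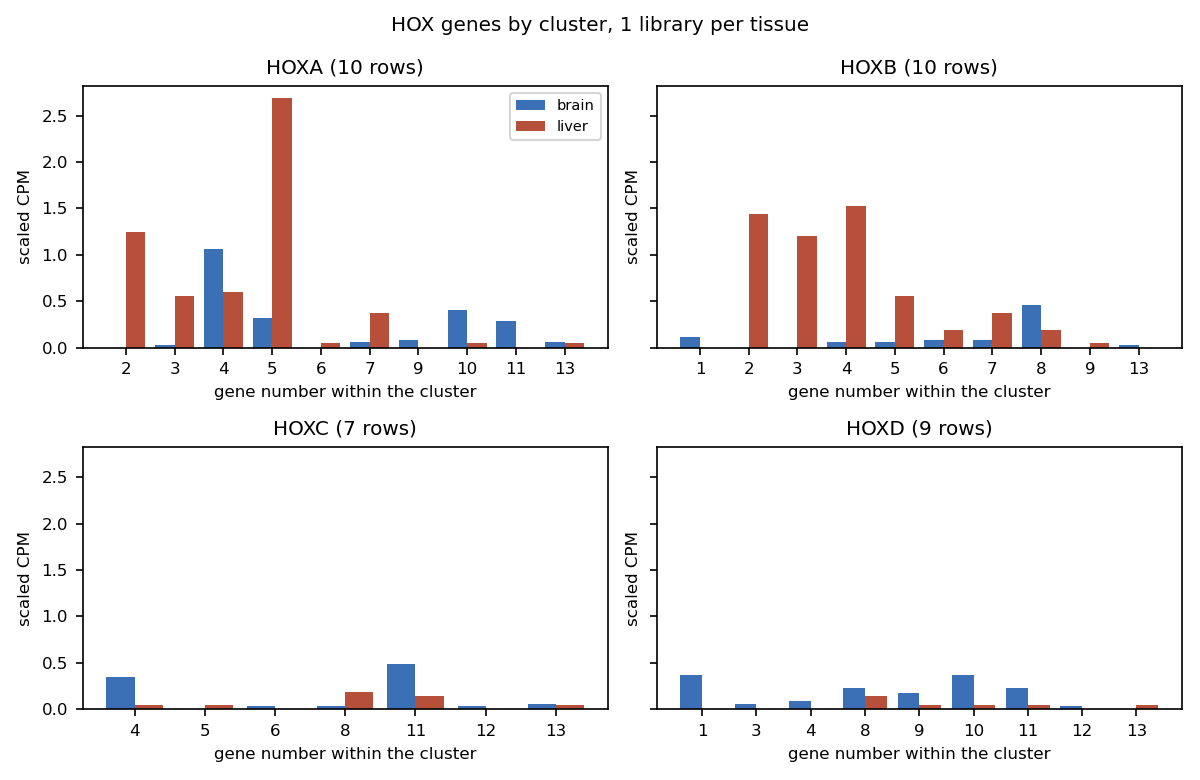
Scaled CPM of 36 of the 37 HOX members in brain (blue) and liver (red), 1 panel per cluster, ordered by gene number along the x axis, 1 library per tissue and no error bars. Liver bars stand at HOXA2 to HOXA5 and HOXB2 to HOXB5, with HOXA5 highest at 2.69 CPM, and the highest bar of HOXC and HOXD is 0.486 CPM (HOXC11 in brain).

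Both tissues can hold blood, vessel and connective tissue cells, in which HOX and other mesodermal homeobox genes are known to act. Of 9 endothelial and blood cell markers with a row, 6 were at 4-fold or more toward liver, where the background is 11.3%. The 9 summed to 808 CPM in liver against 200 in brain (in brain from 0.172 CPM for CD3E up to 73.8 for CSF1R). The markers differed widely: STAB2 was at 96.7 CPM in liver against 0.658 in brain and LYVE1 at 44.4 against 1.29. CSF1R was near equality at 61.0 against 73.8. The 4 stellate and mesenchymal markers summed to 200 CPM in liver and 81.1 in brain. Against the same background, 1 of them, COL3A1, was at 4-fold or more toward liver. No marker of these lists was at 0 in either library. Biliary markers (KRT19, KRT7 and SPP1) summed to 35.7 CPM in liver and 44.7 in brain, with KRT7 at 27 liver counts and 0 in brain, and those of smooth muscle and meninges to 108 and 52.1. The part of these cells in the HOX counts was not tested. In bulk tissue, more cells of a type and more RNA per cell cannot be told apart.

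The NKL class and its relatives hold factors of both tissues. Toward brain, EMX1, a marker of the dorsal telencephalon and its excitatory neurons, had 520 counts in brain and none in liver, at least 107-fold higher. NKX2-2, which acts in oligodendrocyte precursors, had 336 and 0 counts, at least 69.2-fold higher. BARX2 had 840 and 1 counts, a fold of 519 with an interval from 92.9 to 20524. EMX2, the partner of EMX1, had 24 and 0 counts, under 1 CPM. MSX1 was near equality with 204 and 114 counts (1.11-fold, 0.875 to 1.40), a log2 ratio of 0.12 that became 1.06 with plain library size.

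Toward liver, HHEX, required for the liver bud and expressed in hepatocytes and endothelium, had 893 counts against 53 in brain and was 27.3-fold higher (20.7 to 36.7). HLX, which acts in liver mesenchyme and blood cells, had 76 and 30 counts (4.10-fold, 2.65 to 6.48), and MEOX2, a factor of mesoderm and vessels, 34 and 5 (11.0-fold, 4.28 to 36.0). CDX2, the intestinal factor, had 55 liver counts and 12 in brain (7.42-fold, 3.92 to 15.2). The pancreas and gut factor PDX1 had 20 and 1 counts and MNX1, of motor neurons and pancreas, 13 and 1, and both stayed under 1 CPM.

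CUT factors carry extra DNA-binding cut domains. ONECUT1, also named HNF6 and active in hepatocytes and bile ducts, had 861 liver counts and 4 in brain, 39.9 against 0.114 CPM, a 348-fold difference toward liver (136 to 1281). ONECUT2 had 9 and 1 counts. SATB1, a chromatin organiser of interneurons and T cells, had 2464 brain and 743 liver counts, 2.05-fold higher in brain (1.89 to 2.23). CUX2, of upper cortical layers, had 721 and 195 counts, 2.28-fold higher (1.95 to 2.69). CUX1 was spread over 3 rows with folds toward brain of 2.01, 2.55 and 1.34, and joined it had 3255 and 1293 counts, a fold of 1.56 (1.46 to 1.66).

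TALE cofactors were present in both tissues, with opposite leanings of close relatives. MEIS3 had 1389 and 62 counts, a 13.8-fold difference toward brain (10.7 to 18.2), and MEIS2 had 441 and 58 (4.70-fold, 3.57 to 6.29, log2 ratio 1.89). MEIS1, a partner of HOX proteins in blood and endothelium, had 152 and 359 counts in its main row and was 3.82-fold higher in liver (3.15 to 4.65). PBX3 was 2.72-fold higher in liver (2.41 to 3.08) with 414 and 697. The log2 ratios of MEIS1 and PBX3, -1.72 and -1.37, became -0.74 and -0.32 with plain library size. PBX2 had 1529 and 1695 counts and a log2 ratio of -0.83, which became 0.26 with plain library size. PKNOX2 was 37.3-fold higher in brain (15.8 to 116), with 302 and 5 counts. TGIF1, a repressor in TGF-beta signalling, had 83 and 393 counts and was 7.66-fold higher in liver (6.03 to 9.83), with a log2 ratio of -2.51, and -1.58 with plain library size.

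Zinc finger homeobox genes were widely present. All 13 of their rows reached 1 CPM in at least 1 library, with ZEB1 and ZEB2 giving 3 rows each, and the median log2 ratio was 0.21. Toward brain 1 was called (background 14.6%), the ZFHX2-like row of uncertain identity described below. Toward liver 1 was called (background 11.3%), HOMEZ. ADNP, a chromatin factor needed for brain development, had 2076 brain and 1273 liver counts, 59.4 and 58.9 CPM, a fold of 1.01 (0.939 to 1.08), and its relative ADNP2 1.11 (0.951 to 1.30). ZHX2 was at 1.19 (0.937 to 1.51). ZHX1 had 1571 and 2252 counts and was 2.32-fold higher in liver (2.17 to 2.48), with the most liver counts of any member. Its log2 ratio of -1.20 became -0.10 with plain library size. HOMEZ had 207 and 612 counts and was 4.78-fold higher in liver (4.08 to 5.63), with a log2 ratio of -2.08, and -1.06 with plain library size. ZFHX3 had 396 and 350 counts and a log2 ratio of -0.48, which became 0.55 with plain library size.

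ZEB1 and ZEB2, E-box repressors of epithelial genes, were each spread over 3 rows. The ZEB1 rows had 1487, 1211 and 60 brain counts against 431, 236 and 32 in liver. Joined, ZEB1 was 2.44-fold higher in brain (2.24 to 2.65). The ZEB2 rows had 794, 758 and 508 brain counts against 156, 127 and 140, and joined ZEB2 was 3.01-fold higher (2.71 to 3.35). The row deposited as a ZFHX2-like product had 761 and 17 counts, a fold of 27.7 toward brain (17.2 to 47.7). Its gene number belongs to RNF212B in the reference table, so that its identity is uncertain. The same holds for a Hox-D9-like row (6 and 1 counts), counted above as HOXD, and an MSX-3-like row (2 and 0). Their gene numbers belong to HOXD10 and VENTX, and the product text was followed.

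Some members outside these classes were also compared. HDX had 120 and 3 counts (24.7-fold toward brain, 8.26 to 122) and PROX2 76 and 8 (5.87-fold, 2.83 to 14.1). HMBOX1, a telomere-binding protein, had 1663 and 802 counts (1.28-fold, 1.18 to 1.40), and HOPX, which lacks DNA binding and marks some stem cells and astrocytes, 848 and 445 (1.18-fold, 1.05 to 1.32). TSHZ2 and HESX1 had log2 ratios of -0.07 and -0.02, both above 0 with plain library size (0.81 and 0.54).

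The members were then grouped by where textbooks place their expression, in groups drawn up after the counts were seen. Of 12 rows of the dorsal forebrain and cortex (EMX1, EMX2, LHX2, OTX1, CUX1, CUX2, SATB1, POU3F2, POU3F3 and MEIS2), 10 reached 1 CPM in brain and 6 in liver, against 14407 and 13182 of all 21653 names. CUX1 gave 3 of these rows, at 17.7, 0.741 and 41.4 CPM in liver. SATB1, described above for interneurons and T cells, was at 34.4 CPM there, so the group is not confined to factors of the dorsal forebrain. OTX1, known from deep cortical layers, missed 1 CPM with 32 brain counts and 0 in liver, and EMX2 with 24 and 0. Of 8 ventral forebrain rows, 4 reached it, LHX6, DLX1 and DLX2 among them. LHX8, a factor of forebrain cholinergic neurons, had 1 brain count, and GSX1 and GSX2, of ventral progenitors, had 3 and 10.

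Rows of the midbrain and isthmus, hindbrain and spinal cord, and hypothalamus and retina groups stayed low in brain. NKX2-2, at 9.61 CPM in brain, was placed apart from these as a factor of the oligodendrocyte lineage. None of 7 midbrain and isthmus rows reached 1 CPM in brain, and together they had 27 brain and 20 liver counts. Among them EN1 had 5 and 3, OTX2 had 3 and 2, GBX2 had 6 and 0 in its main row, and PITX3, of midbrain dopamine neurons, had 6 and 8. None of 14 hindbrain and spinal cord rows reached 1 CPM in either tissue, with 53 brain counts in all, of which LHX1 held 25 and PHOX2A 10. HOX members were placed in no group, although HOX genes act from the hindbrain backward, and HOXA4 reached 1.06 CPM in brain. Since membership was set after the counts were seen, the groups do not show which brain part was sampled. The 8 hypothalamus and retina rows had 16 brain counts in all. These levels lie under 1 CPM, where the depth limits the reading: a count of 0 in brain allows up to 0.0858 CPM and in liver up to 0.139 CPM (3 counts).

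**Figure D4:**
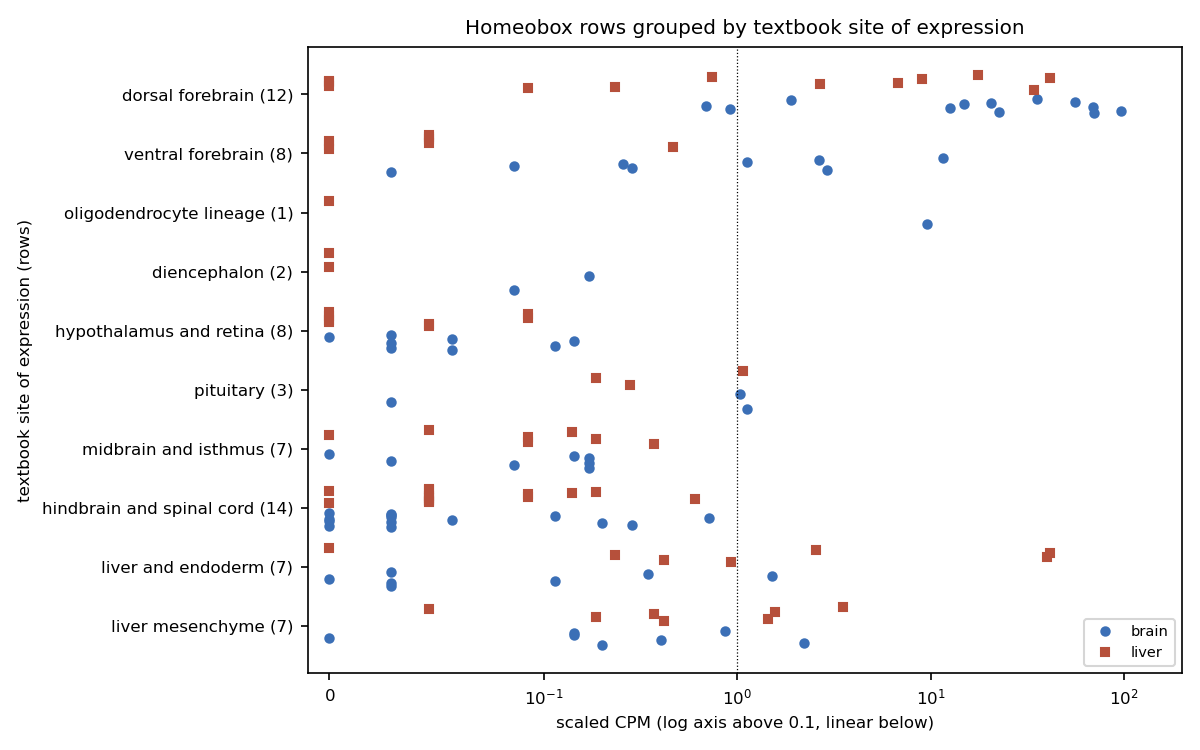
Scaled CPM of 69 members grouped by textbook site of expression (number of rows in parentheses), brain as blue circles and liver as red squares, 1 library each. The x axis is logarithmic above 0.1 CPM and linear below, and the dotted line marks 1 CPM. In brain, 10 of 12 dorsal forebrain rows lie at or beyond the line, and 0 of 7 midbrain and 0 of 14 hindbrain and spinal cord rows. In liver, 6 of the 12 dorsal forebrain rows do so. The groups were drawn up after the counts were seen and do not show which brain part was sampled. HOX members are in none of the groups.

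A limit for carry-over between the libraries was taken only from the ALB counts in brain and the STMN2 counts in liver. If all brain counts of ALB came from liver, 0.0262% of liver counts were carried, and if all liver counts of STMN2 came from brain, 0.0141% of brain counts were. At these rates ONECUT1 would give 0.226 counts in brain against 4 observed and HHEX 0.234 against 53. POU3F2 would give 0.476 counts in liver against 5 observed and LHX2 0.340 against 146. Whether reads were carried over was not tested.

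Genes of related function that lie outside the rule were compared by lists. The lists were chosen with earlier results of these data known. Of 13 further homeodomain genes with a row whose product text lacks the word, 8 reached 1 CPM and 2 were at 4-fold or more toward brain (background 14.6%), PAX6 (454 and 3 counts, log2 ratio 3.62) and TSHZ3 (257 and 7, 2.66). PAX6 acts in cortical progenitors and the eye. ISL1, a LIM factor of striatal and motor neurons, had 235 and 35 counts (1.56) and PBX4 277 and 37 (1.72). None was at 4-fold toward liver (background 11.3%), and the median log2 ratio of the 8 was 0.87.

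Of 18 cofactors of homeobox proteins with a row, 16 reached 1 CPM, 5 were at 4-fold or more toward brain and none toward liver, where the backgrounds are 14.6% and 11.3%, and the median log2 ratio was 1.05. The 5 were LMO3 (2.87), LMO4 (2.84), SSBP2 (2.79), TLE4 (2.58) and LDB2 (2.34). LDB and SSBP proteins join LIM factors into complexes, LMO proteins compete for LDB, and TLE proteins are corepressors. GMNN, a replication licensing inhibitor that also binds SIX3 and HOX proteins, was at -1.73. Of 24 regional genes, 17 reached 1 CPM, 8 were at 4-fold or more toward brain and 2 toward liver, against the same backgrounds, with a median log2 ratio of 1.98. The 8 were the cortical genes BCL11A (5.92), TBR1 (4.78), FEZF2 (3.84) and RORB (2.38), LMO4, which the cofactor list also holds, and ZIC1 (3.23), ZIC2 (2.49) and ZIC4 (2.02), known from the cerebellum and dorsal neural tube. ZIC1 had 294 brain counts and none in liver, ZIC2 179 and 2, and ZIC4 126 and 3. FOXA1 (-5.13) and FOXA2 (-5.29), pioneer factors of endoderm, were the 2 toward liver. FOXP2 (-1.58) and NR2F2 (-1.55) were higher in liver by less than 4-fold with the pseudocount. ATOH1, known from the cerebellum and hindbrain, and TFAP2B had 0 to 2 counts in each library.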

How the data were processed

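RNA from 1 brain and 1 liver sample was sequenced, and the authors deposited 1 table of raw counts per gene. Alignment was by TopHat against Sscrofa10.2 (susScr3), per the submitters' processing notes. Not given in the sources used here are the TopHat version, the counting program and whether strand was used. The table also holds a gene length, another deposited value that was not used. No genome or sequence table was used, so no sequence is shown. Some members are not reported here by name.

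Rows were summed per name. Symbols came from the table, from gene numbers in RefSeq's Sscrofa11.1 gene table, or from the product text. Scaling used TMM in edgeR 4.0.16 (R 4.3.3), with factors of 1.47 for brain and 0.681 for liver, fitted on all 21653 names, with no test. DESeq2 1.42.0 gave median-of-ratios factors as an alternative. Intervals came from scipy 1.17.1. The procedure was tested on simulated data. Members and lists were chosen with earlier results of these data known. Per class, the up to 6 members with the most counts and every called member were described, with further members at 1 CPM or more, and scarcer ones by name and counts. Region groups, HOX poolings and the scarce members named singly were chosen after their values were seen. Other settings tried were pseudocounts of 0.1 and 5, no filter or 5 CPM, folds of 2 and 8, plain library size, totals without the 50 highest genes, the highest row per name, wider member sets, rows joined per gene and an interval rule, the last pair added after the data were seen.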

Additional observations from a re-analysis of the deposited data

How the results depend on the processing

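With 1 library per tissue no library could be left out, and no paired analysis was possible because each tissue has a single sample. For altered settings of the pseudocount rule no background share was computed. With plain library size 26 members were at 4-fold or more toward brain and 2 toward liver, and 34 and 5 by the interval rule. These 34 and 5 are 20.9% and 3.07% of the members, where the backgrounds at this scaling are 21.9% and 5.04%. The median log2 ratio was 1.29 over all members, -0.83 for HOX, 2.01 for LIM, 1.13 for SIX-family and 1.33 for the other classes. There 2 LIM, 1 DLX and 22 other members lay toward brain and 2 others toward liver. Of 62 named members, 4 changed sign (PBX2, HESX1, TSHZ2 and ZFHX3). Without the 50 highest genes 2 changed sign. There the interval rule gave 24 members toward brain (14.7%, background 15.8%) and 7 toward liver (4.29%, background 7.22%). Medians at that scaling were 0.90 (all), 2.63 (LIM), 0.95 (SIX-family) and 0.94 (others). The pooled log2 ratio of the 10 anterior HOXA and HOXB genes, -2.67, became -1.56 by plain library size and -2.20 with the 50 highest genes removed, and that of the other HOX genes went from 0.96 to 2.07 with plain library size.

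A pseudocount of 0.1 gave 20 members toward brain and 12 toward liver, with 6 HOX in liver and 2 LIM, 2 DLX and 1 SIX-family in brain, and medians of 0.86 (all), -3.37 (HOX), 2.88 (LIM), 0.76 (SIX-family) and 1.02 (others). A pseudocount of 5 gave 7 and 2, with 0 IRX and 6 others in brain and 2 others in liver, and medians of 0.26, -0.36 (HOX), 1.60 (LIM) and 0.35 (others). The interval rule gave 11 toward liver. At 2-fold 27 members lay toward brain (2 LIM, 2 DLX and 22 others) and 16 toward liver (6 HOX and 10 others), and at 8-fold 2 toward liver, both among the others, and 0 IRX. Without a filter medians were 0.065 (all), 0.041 (HOX), 0.041 (LIM), 0.68 (SIX-family) and 0.080 (others). At 5 CPM they were 1.05 (all), 3.18 (LIM) and 1.05 (others), with 0 IRX and no HOX, DLX or SIX-family member left to give a median. The wider set of homeodomain genes, which also takes in HIPK and PHTF genes, gave 0.42, 1.56 (LIM) and 0.57 (others). With the 3 rows kept that the rule leaves out, 7 members were toward liver, all among the others, with medians of 0.40 and 0.42. Median-of-ratios scaling and the highest row per name turned the sign of none of the 62. Joined rows gave medians of 0.41 and 0.54.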

Other observations

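Further values concern single rows and their neighbours. BARX2, a factor known from muscle and epithelia, had 840 brain counts and 1 in liver, and its neighbours in the reference gene order, ARHGAP32 and an unnamed gene, had 1225 and 245 brain counts against 55 and 1 in liver. IRX6 had 155 brain counts and 0 in liver, whereas its neighbour IRX5 had 2 in each and MMP2 on the other side 857 and 401. The mostly embryonic genes CDX4 and NANOGNB had 11 brain counts each and none in liver, and ALX1, of craniofacial mesenchyme, had 31 and 14. Whether these reads come from the named genes was not tested.

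Among connective tissue factors, PRRX1 had 77 and 31 counts in its main row and 14 and 4 in the other, and joined it was 1.61-fold higher in brain (95% interval 1.08 to 2.45). MEOX1 had 5 and 1 counts and PRRX2 had 7 and 9. NKX2-3, of spleen and gut vessels, had 8 liver counts and 0 in brain.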
